A study of Mus musculus with 8 samples.

Results

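The constitutive strong distal regions are 190 stretches of open chromatin that were strongly accessible in all 8 ATAC-seq libraries and lay away from protein-coding genes. The peaks of the 8 deposited lists were merged where they overlapped by at least 1 bp, which gave 443327 union regions. Members were chosen by the deposited −log10 p and by position. A region was a member when its strongest peak had a −log10 p of at least 100 in every library and its centre lay outside all protein-coding genes and 5 to 50 kb from the nearest start or end of one. Of the 443327 union regions, 71365 had a peak in all 8 lists and 5565 of these reached the limit of 100 in every library. Most of the strong regions, 4531, had their centre within 1 kb of the start or end of a protein-coding gene, 694 lay inside genes, 101 lay over 50 kb away and 49 lay at 1 to 5 kb.

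ATAC-seq uses the Tn5 transposase to cut open DNA and insert sequencing adapters, so that peaks of reads mark accessible chromatin. The libraries came from mice on a C57Bl/6J background, with 2 libraries in each of 4 groups. Mice fed PLX chow (the labels spell the compound PLX5562 and give removal of microglia as its purpose) and mice fed control chow, both from postnatal day 20, gave microdissected dorsal lateral geniculate nuclei (dLGN, the visual relay of the thalamus) at postnatal day 32. Untreated Fn14 knockout (KO) mice, which lack the receptor for the cytokine TWEAK, and wild-type (WT) littermates gave frozen coronal sections with cortex, hippocampus and dLGN at postnatal day 27. The sources used here do not say how the KO allele was made or how many mice went into each library. Replicates are separate samples in the labels, which do not say whether each came from its own animal, so p-values measure only the spread between these samples.

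Open regions far from protein-coding genes are usually enhancers, insulators bound by CTCF, or the promoters of non-coding RNA genes. Enhancers tend to be open in some cell types and closed in others, whereas promoters of widely used genes tend to lie in CpG islands and to be open in most tissues. Genes for long non-coding RNAs (lncRNAs) are transcribed by RNA polymerase II, as are most microRNA hosts, and tRNA genes by RNA polymerase III.

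The promoters of 7 lncRNA genes that start inside members are shown because 50 members hold a lncRNA start and serve as examples. Gm42196 and Chaserr lie in the strongest such members, Dancr, Snhg5 and Mir22hg are named loci, and Gm42196, 1700113A16Rik and Gm26567 are among the members with the largest differences between tissues. Each is the 300 bases from 250 before to 50 after the annotated start, 5′ to 3′ on the gene's strand, from RefSeq on GRCm38.p6, and capitals mark a match to a motif given below. Chaserr, a lncRNA that limits expression of its neighbour Chd2 in mice, lies at chr7:73558346-73558645 on the minus strand. Dancr, a lncRNA studied in cell differentiation, lies at chr5:74092810-74093109 on the plus strand. Snhg5, a host of small nucleolar RNAs, lies at chr9:88522848-88523147 on the minus strand. Mir22hg, the host of miR-22, lies at chr11:75461289-75461588 on the plus strand. The other promoters belong to the lncRNA genes Gm42196 (chr3:28176262-28176561, plus strand), 1700113A16Rik (chr3:88177736-88178035, minus strand) and Gm26567 (chr9:88599390-88599689, plus strand).
Chaserr: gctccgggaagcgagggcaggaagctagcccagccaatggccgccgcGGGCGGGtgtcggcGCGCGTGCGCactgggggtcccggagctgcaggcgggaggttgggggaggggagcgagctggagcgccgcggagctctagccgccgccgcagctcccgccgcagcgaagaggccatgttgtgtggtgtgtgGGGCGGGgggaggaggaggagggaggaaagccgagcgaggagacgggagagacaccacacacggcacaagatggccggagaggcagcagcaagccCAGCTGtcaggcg
Dancr: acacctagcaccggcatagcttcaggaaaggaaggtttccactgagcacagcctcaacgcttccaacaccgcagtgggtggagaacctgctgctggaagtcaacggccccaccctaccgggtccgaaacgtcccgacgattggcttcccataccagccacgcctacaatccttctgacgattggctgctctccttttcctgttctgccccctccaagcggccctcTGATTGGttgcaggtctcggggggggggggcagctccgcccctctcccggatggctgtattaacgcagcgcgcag
Snhg5: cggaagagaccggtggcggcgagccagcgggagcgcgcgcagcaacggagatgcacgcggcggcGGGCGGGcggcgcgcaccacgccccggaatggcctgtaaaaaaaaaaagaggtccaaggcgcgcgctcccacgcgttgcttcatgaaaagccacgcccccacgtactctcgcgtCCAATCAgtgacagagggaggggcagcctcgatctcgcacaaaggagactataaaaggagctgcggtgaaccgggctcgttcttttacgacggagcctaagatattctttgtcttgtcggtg
Mir22hg: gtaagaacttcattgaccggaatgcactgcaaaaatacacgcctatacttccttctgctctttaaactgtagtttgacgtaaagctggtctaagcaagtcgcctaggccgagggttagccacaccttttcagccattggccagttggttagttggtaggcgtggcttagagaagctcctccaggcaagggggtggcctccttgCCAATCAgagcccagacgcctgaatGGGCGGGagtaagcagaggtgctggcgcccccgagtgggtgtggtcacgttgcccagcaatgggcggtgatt
Gm42196: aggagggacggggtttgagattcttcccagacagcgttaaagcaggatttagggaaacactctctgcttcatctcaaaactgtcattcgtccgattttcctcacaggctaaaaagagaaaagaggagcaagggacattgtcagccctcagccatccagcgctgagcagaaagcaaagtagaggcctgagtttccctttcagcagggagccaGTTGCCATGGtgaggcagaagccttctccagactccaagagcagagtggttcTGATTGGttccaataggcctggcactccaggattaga
1700113A16Rik: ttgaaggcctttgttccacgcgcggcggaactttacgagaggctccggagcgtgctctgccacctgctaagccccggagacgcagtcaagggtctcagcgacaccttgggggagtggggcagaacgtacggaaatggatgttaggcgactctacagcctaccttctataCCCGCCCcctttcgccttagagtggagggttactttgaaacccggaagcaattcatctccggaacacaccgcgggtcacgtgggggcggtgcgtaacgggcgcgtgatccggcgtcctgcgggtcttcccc
Gm26567: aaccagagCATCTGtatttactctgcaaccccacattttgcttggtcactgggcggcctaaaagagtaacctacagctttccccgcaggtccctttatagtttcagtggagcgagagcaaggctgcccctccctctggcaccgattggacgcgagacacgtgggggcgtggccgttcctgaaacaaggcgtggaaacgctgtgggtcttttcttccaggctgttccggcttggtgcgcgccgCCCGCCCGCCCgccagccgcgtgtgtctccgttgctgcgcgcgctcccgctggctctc

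2 members are described below with microRNAs that are abundant in brain. The mature sequences are shown 5′ to 3′ from RefSeq, with the seed (bases 2 to 8) in capitals, and let-7a-5p and let-7f-5p share their seed.
let-7a-5p: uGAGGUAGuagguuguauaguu
let-7f-5p: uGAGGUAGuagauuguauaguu
miR-22-3p: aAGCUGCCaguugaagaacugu

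Strength in each library chose the members and is given as a description. The median −log10 p of the 190 members was 270 and 269 in the PLX chow libraries, 353 and 295 in the control chow libraries, 214 and 176 in the KO libraries and 195 and 143 in the WT libraries. Over all 71365 shared regions the medians were 29.9 and 31.5 in PLX chow, 41.0 and 33.0 in control chow, 25.5 and 20.9 in KO and 19.8 and 16.3 in WT. The dLGN libraries were thus the higher ones for members and for shared regions alike, so raw −log10 p values cannot be compared between libraries and ranks among the 71365 shared regions are used below. The median member stood at percentiles of 94.56 to 94.97 in the 8 libraries, and the lowest member of any library at 79.87. WT library 2 was the weakest library and set the minimum of 133 of the 190 members. Without it 267 regions would be members. Across the 8 libraries the highest −log10 p of a member was 1.31 to 4.79 times its lowest, with a median of 2.44.

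**Figure D1:**
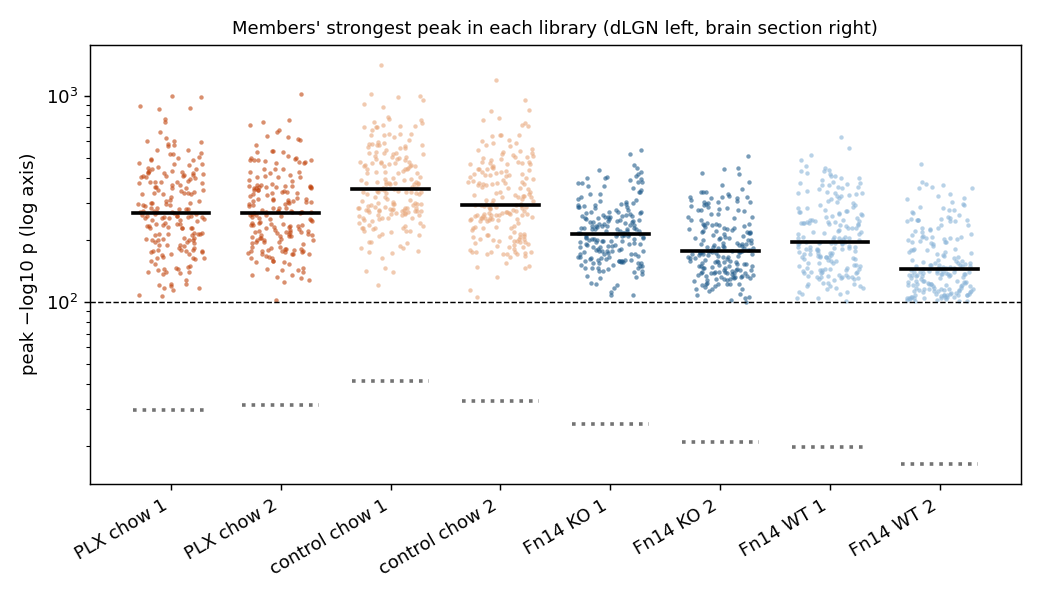
Each point is 1 of the 190 members and shows the −log10 p of its strongest peak (log axis) in 1 library, with PLX chow and control chow dLGN on the left and KO and WT brain sections on the right. Solid bars are the members' medians, dotted bars the medians over all 71365 shared regions, and the dashed line is the limit of 100. Points crowd onto the limit in WT library 2, where the members' median was 143.

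The strongest member of all had no annotated gene end within 5 kb. It lay at chr3:65974056-65975325, 12662 bp from Ccnl1, which encodes the splicing-associated cyclin L1. Its −log10 p was 999 and 1020 in PLX chow, 1413 and 1186 in control chow, 518 and 447 in KO and 630.5 and 465 in WT. Its lowest percentile among shared regions in any library was 99.73, and the nearest non-coding gene end was 5486 bp away. The second, at chr6:122810419-122811658, lay 8676 bp from Slc2a3, which encodes the neuronal glucose transporter GLUT3. Its values were 983 and 765 in PLX chow, 994 and 954 in control chow, 362 and 418 in KO and 419 and 371.5 in WT. For both members every dLGN library had the higher raw value, as for the library medians.

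The next 8 members by their lowest value, 302 to 352, included those nearest to Pld1, Pum2 (an RNA-binding repressor of translation), Zfp958, Chd2 (a chromatin remodeller), Trappc9, Lin54 (a DNA-binding subunit of the MuvB complex) and Mpped2. Of these 8, 4 covered the start of a lncRNA gene. The member near Chd2, at chr7:73557776-73559232, covered the start of Chaserr. Its −log10 p was 619 and 664 in PLX chow, 772 and 762 in control chow, 365 and 324 in KO and 446 and 379 in WT. The members near Pld1, Lin54 and Mpped2 covered the starts of the lncRNA genes Gm42196, 5430416N02Rik and BB218582. At the other end, the 3 members just inside the limit lay nearest to Syce1l, Kcns3 and Nat8f2 with lowest values of 100.6, 100.2 and 100.1. The 3 distal regions just outside lay nearest to Ddx3x, Mgarp and Gm36298 with lowest values of 99.8, 99.4 and 98.9.

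Nearly every second member sat beside a non-coding gene, a position that the rule did not use. An end of a non-coding gene lay within 1 kb of the centre of 93 of the 190 members (48.9%, Wilson 95% interval 41.9 to 56.0%), against 15.4% of the 4531 strong regions at gene ends, 13.8% of the strong regions inside genes, 23.8% of those over 50 kb away, 11.1% of the 11002 weaker distal regions with a peak in all 8 lists and 7.47% of all shared regions. The nearest such end belonged to a lncRNA gene for 60 members, a tRNA gene for 16, a transcribed pseudogene for 7, and a microRNA, another pseudogene or an snRNA gene for 3 each, and to a T-cell receptor V segment for 1. An annotated lncRNA start lay inside 50 members (26.3%), against 9.69% of strong regions at gene ends and 3.29% of weaker distal regions. These shares are descriptions of 1 set of positions with no test over samples. Of the others, 77 members (40.5%) had no non-coding gene end within 5 kb, and their median lowest −log10 p was 138, against 135 for the 93 with an end within 1 kb.

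**Figure D2:**
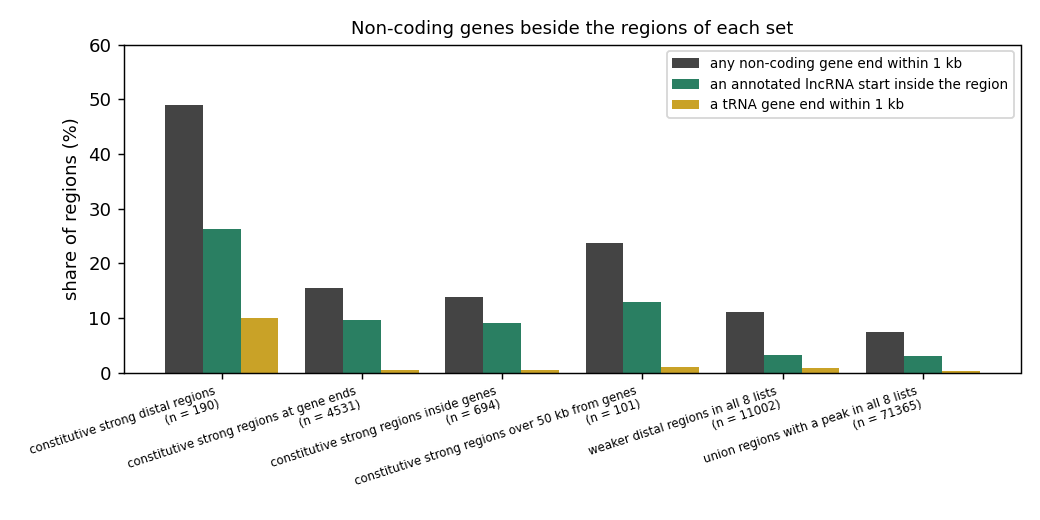
Bars show the share of regions (%) in each set that have any non-coding gene end within 1 kb of their centre, an annotated lncRNA start inside, or a tRNA gene end within 1 kb, with the constitutive strong distal regions leftmost. The 3 shares were 48.9%, 26.3% and 10% for the 190 members, each above every other set plotted.

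The 10 strongest members with a non-coding gene end within 1 kb had lowest −log10 p values of 258 to 352. By the nearest non-coding end, 8 were beside lncRNA genes and 2 beside tRNA genes. Besides the 4 already named, the lncRNA genes were Gm34267 near 4930444G20Rik, Gm8273 near Rab2a, Dancr near Usp46 and 1700113A16Rik near Mef2d. Among the members at lncRNA genes were also several of widely studied loci. The member over Dancr, at chr5:74092496-74093632 and 24653 bp from Usp46, had −log10 p values of 581 and 496 in PLX chow, 706 and 548.5 in control chow, 436.5 and 279 in KO and 434.5 and 357 in WT. The member over Snhg5, at chr9:88522467-88523628, had 498 and 535 in PLX chow, 703 and 604 in control chow, 269 and 287 in KO and 336 and 222 in WT. Other members held the starts of Snhg15, another small nucleolar RNA host, of Oip5os1 (the conserved lncRNA Cyrano) and of Kantr, with lowest values of 177.5, 135 and 154. In each of these 5 members WT library 2 was lowest, except that KO library 2 was lowest at Dancr.

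A microRNA of the RefSeq sequence table lay within 10 kb of the centre of 6 members. The closest were Mir760 at 37 bp near Dnttip2, Mir713 at 82 bp near Gm5141 and Mir7688 at 556 bp near Lta4h, and Mir1839 lay at 6423 bp near Fsd2. The remaining members lay near the genes of miR-22 and let-7. The member over Mir22hg, at chr11:75461064-75461925, had its centre 2221 bp from Mir22 and −log10 p values of 307 and 297 in PLX chow, 424 and 328 in control chow, 225 and 219 in KO and 226.6 and 134.8 in WT. The member at chr13:48545461-48546984 lay 7951 bp from Mirlet7a-1 and 8306 bp from Mirlet7f-1, on the upstream side of both, which are read from the minus strand. Its values were 599 and 540 in PLX chow, 714 and 638 in control chow, 406 and 319 in KO and 456.5 and 294 in WT. Its nearest protein-coding gene, Ptpdc1, was 31646 bp away, and no annotated start lay inside it.

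tRNA genes were near 19 members (10%), against 0.397% of the strong regions at gene ends and 0.809% of the weaker distal regions. Of the 16 members whose nearest non-coding end was a tRNA gene, 4 were on chromosome 13 and 3 on chromosome 2. The strongest, at chr3:19627831-19629417, had its centre 158 bp from the tyrosine tRNA gene n-TYgta2. Its −log10 p was 541 and 364 in PLX chow, 649 and 535 in control chow, 295 and 307.5 in KO and 512.5 and 296 in WT. The next were beside n-TAcgc8 and n-TLtaa3, with lowest values of 264 and 255. Both also held lncRNA starts, of 4930555B11Rik and BB557941 at n-TAcgc8 and of B230208H11Rik at n-TLtaa3. The members beside n-THgtg3 and n-THgtg4 near Shf and those beside n-TLcaa1 and n-TAagc17 near Trim27 formed 2 close pairs. Copies of a tRNA gene are near-identical, and the deposited pipeline instructions set multimapping to 0, so the strength of peaks at tRNA genes is uncertain.

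The 57 promoters of the 53 lncRNA genes that start in members were rich in CpG. Their CpG count over the count expected from their C and G content had a median of 0.69, and 36 of 57 (63.2%) were over 0.6. For lncRNA starts in weaker distal regions the median was 0.33 and 19.0% were over 0.6. For all 11588 lncRNA promoters in the RefSeq table the median was 0.24 and for those outside shared regions 0.21, while protein-coding starts in strong regions at gene ends had 0.83, with 87.2% over 0.6. The lncRNA promoters in members thus stood between the other lncRNA promoters and the protein-coding promoters of the strong gene-end regions. The lower quartile of the ratio over the promoters in members was 0.43. Of the promoters shown, Gm42196 had 0.26, Mir22hg 0.54, Dancr 0.65, Chaserr 0.83, Gm26567 0.88, 1700113A16Rik 0.99 and Snhg5 1.26. The median summit of the member lay a median of 48 bp upstream of the start and within 100 bp of it for 32 of the 57 promoters.

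**Figure D3:**
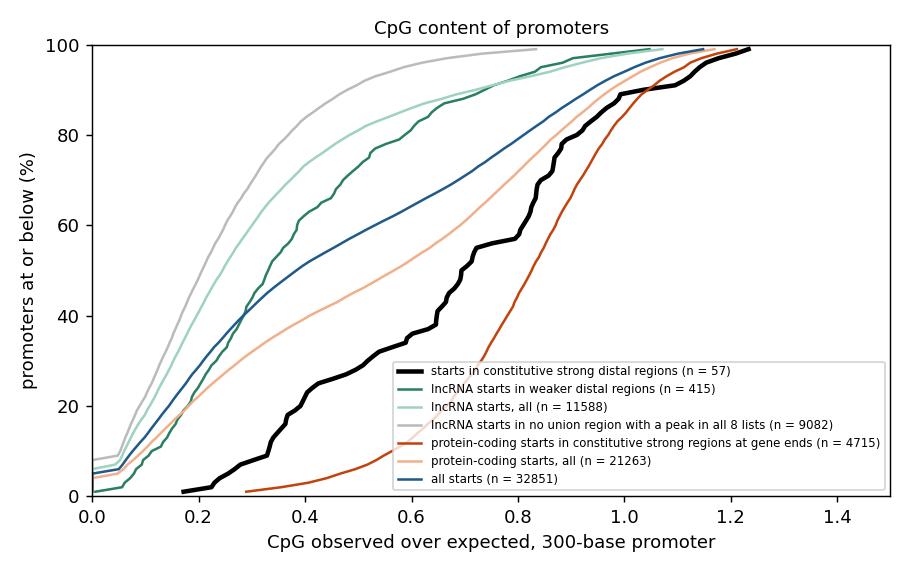
Each line gives the percentage of 300-base promoters in a set (y axis) at or below a CpG observed over expected ratio (x axis). The 57 lncRNA promoters inside members (black) have a median of 0.69 and lie between the lncRNA sets, with medians of 0.21 to 0.33, and the protein-coding promoters in strong gene-end regions, with a median of 0.83. All protein-coding promoters, also plotted, have a median of 0.57.

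Several motifs known from CpG-rich promoters were more frequent in the members' promoters than in other lncRNA promoters. The GC box (GGGCGGG) was in 38.6% of the 57 promoters, against 15.7% of the lncRNA promoters in weaker distal regions, 10.3% of all lncRNA promoters, 53.6% of the protein-coding promoters in strong gene-end regions and 25.6% of all 32851 promoters. The NRF1 motif was in 5 (8.77%), against 0.964% in weaker distal regions and 4.603% of all promoters, and the ETS motif (CCGGAAGT) likewise in 5 (8.77%), against 0.964% and 3.89%. Some of the 57 windows overlap, so that a site can count in several promoters. The NRF1 and GC box matches of 4930555B11Rik and BB557941 are the same sites, as is the GC box of Gm26611 and 9330159M07Rik. The CCAAT box (CCAATCA), which was added after the sequences had been seen, was in 12 (21.1%), against 7.23% in weaker distal regions, 17.4% at protein-coding starts of strong gene-end regions and 7.82% of all promoters. It is in capitals in Dancr, Snhg5, Mir22hg and Gm42196 above. The CTCF motif was in 6 (10.5%), against 13.3% in weaker distal regions and 8.61% of all promoters.

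The shares with motifs of tissue and activity factors lay on either side of those in all promoters. The AP-1 motif (TGANTCA) was in 4 promoters (7.02%), against 7.81% of all promoters, and the CRE (TGACGTCA) in 2 (3.51%), against 1.79%. The E-boxes CAGATG and CAGCTG were in 19.3% and 10.5%, against 17.2% and 16.3% of all promoters, and the RFX motif, seen in Gm42196, in 1 (1.75%), against 0.563%. The homeobox (TAATTA), MEF2, EGR (GCGTGGGCG) and NF1 motifs were in none of the 57, against 5.29%, 3.69%, 0.612% and 0.0365% of all promoters. Both strands were searched, GC boxes may overlap each other and the EGR motif, and a match describes the letters only. A window of 300 bases around the summits of the other members was not examined, since no genome was used.

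Members placed their summit at nearly the same base in every library. Their width was 532 to 2326 bp with a median of 1101.5 bp, and the widest lay near Arhgap5, Rcsd1 and Dnttip2. The standard deviation of the strongest summit's position over the 8 libraries had a median of 7.17 bp, with a range of 1.58 to 352 bp, and was at most 20 bp for 170 of the 190. The median was 7.05 bp for strong regions at gene ends and 17.6 bp for weaker distal regions. The least steady member lay near Mid1, with its centre 1032 bp from the end of Erdr1. Members held fewer summits than the strong regions at gene ends, with per-library means of 2.34 to 2.69 against 2.66 to 3.26. The difference was −0.45 ± 0.08 summits per region (SD over 8 libraries) and was negative in 8 of 8 libraries. The per-library median covered width differed by −128 ± 22.7 bp (SD over 8 libraries), again negative in 8 of 8 libraries. These differences were not tested. The median fold enrichment differed by 0.236 ± 0.376 (SD over 8 libraries) and was higher in members in 6 of 8 libraries, which is within the spread. The strong regions at gene ends had the higher median lowest −log10 p, 174 against 139 in members. Strong regions over 50 kb from genes had means of 2.24 to 2.60 summits and median covered widths of 816 to 956 bp. Fewer summits and a smaller width than at gene ends were thus not particular to members.

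The spacing of members was described without a test. Another member lay within 100 kb of 25 of the 190 members (13.2%). Within their own sets the share was 12.0% for the 694 strong regions inside genes and 1.98% for the 101 over 50 kb away. It was 52.6% for the 4531 at gene ends. The sets differ in size and position, so these shares do not show members to be more or less solitary. The 3 largest runs had 3 members each, in the Klrb1c and Klrb1b cluster of natural killer cell receptor genes on chromosome 6 (from 128753708 to 128803491), beside Shf and Slc28a2 on chromosome 2 (from 122375405 to 122468245), and beside Zfp825 and Gm46430 on chromosome 13 (from 74462419 to 74564616). In the Klrb1 run the lowest −log10 p of the 3 members was 104, 246 and 247. Mid1 and Klrb1c were among the genes with 2 members each. Chromosome 13 held 25 members (13.2%), against 5.70% of the weaker distal regions and 4.92% of shared regions. 6 of them lay between 21199769 and 22051714, as 3 neighbouring pairs near Trim27, near Zkscan3 and Zkscan8, and near Pom121l2 and H2bc11, a histone gene, and the first and last pair were beside tRNA genes.

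Few members lay nearest to genes of the cell type and pathway lists. Activity-regulated genes, which respond to neuronal firing, were nearest to 4 members (2.11%), against 0.454% of weaker distal regions. They were Fos at 18412 bp, Atf3 at 41277 bp, Nr4a1 at 7457 bp and Klf4 at 12131 bp. The member near Fos, at chr12:85454847-85456108, had −log10 p values of 368.5 and 367 in PLX chow, 432 and 376 in control chow, 376 and 304 in KO and 309 and 207 in WT. On these raw values WT library 2 was lowest, and the other libraries of both tissues overlapped. Raw values cannot be compared between libraries, so this overlap does not compare the tissues. The member near Atf3 covered the start of the lncRNA gene D730003I15Rik. Synapse genes were nearest to 2 members (Nlgn3 and Snap25), astrocyte genes to 2 (Id4 and Gli3), neuronal transcription factors to 1 (Nfib) and oligodendrocyte genes to 1 (Mog). The lowest −log10 p of these 10 members was 138 to 207. The lists of microglia genes, of endothelial and mural genes, of housekeeping genes and of genes of the TWEAK, TNF receptor and NF-kB pathways had 0 members, against 0.109%, 0.127%, 0.155% and 0.227% of weaker distal regions. With 190 members, shares of this size would give less than 1 member each.

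The labels were checked against peaks at defining genes. The strongest peak within 1 kb of Tnfrsf12a, the gene for Fn14, had a −log10 p of 4.13 in KO library 1 and no peak in KO library 2, against 13.6 and 8.02 in WT. In PLX chow it was 10.0 and 19.4, and in control chow 24.5 and 25.3. The sources used here do not say which bases the KO allele lacks. A marker counted when a peak of any strength lay in its gene or within 1 kb of it. All neuronal, excitatory, thalamic, inhibitory, oligodendrocyte and endothelial markers had such a peak in every library. Cortical and thalamic markers thus met this loose criterion in both tissues, so the counts do not check the tissue labels. Of 6 microglial markers 4 and 4 had a peak in PLX chow, 3 and 4 in control chow, 6 and 6 in KO and 5 and 4 in WT. Of 4 astrocyte markers 3 had a peak in control chow library 2 and all had one elsewhere. Presence of a peak therefore did not set PLX chow apart from control chow.

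KO was compared with WT to ask whether loss of Fn14 altered the accessibility of members. Ranks among the 71365 shared regions were turned into normal scores, on which 1 unit is 1 standard deviation of the ranking, and tested with limma. No member and no other shared region passed an adjusted p of 0.05 (0% of 71365 called), and the lowest adjusted p of a member was 0.327. At an unadjusted p under 0.05, 2 members (1.05%) stood beside 12.2% of shared regions. With the spread allowed to follow the mean rank, an alternative added after seeing the data, 0.105% of shared regions and 0 members were called. In that fit 27 members (14.2%) had an unadjusted limma p under 0.05, so the members' unadjusted share depended on how the spread was modelled. The share of shared regions at an unadjusted p in that fit is not given here. The groups did not overlap for 30 members with higher and 50 with lower ranks in KO (15.8% and 26.3%), against 20.2% and 20.8% of shared regions. The median absolute difference of members was 0.09 normal scores, against 0.23 for shared regions and 0.10 for strong regions at gene ends.

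The 3 members with the largest positive and the 3 with the largest negative difference among those whose KO and WT libraries did not overlap are given as values. Nearest to Gm40363, percentiles were 99.89 and 99.44 in KO, against 99.28 and 98.22 in WT, a difference of 0.52 ± 0.22 normal scores (SE). Over 1700113A16Rik near Mef2d they were 99.62 and 99.65 in KO, against 98.95 and 98.35 in WT (0.46 ± 0.15, SE). The other positive one lay near Lrfn3, which encodes a synaptic adhesion protein (0.34 ± 0.15, SE). Those with negative differences lay beside n-TYgta2 near Trim55 (−0.42 ± 0.21, SE), over Gm34267 near 4930444G20Rik (−0.36 ± 0.19, SE) and near Abca1, the cholesterol exporter (−0.33 ± 0.13, SE). None of the 6 passed, with adjusted p between 0.327 and 0.501 in limma. Several sizes changed when 1 library was left out. The difference nearest to Gm40363 was 0.26 without KO library 1 and 0.35 without WT library 2, that near Trim55 −0.21 without WT library 1, and that near 4930444G20Rik −0.18 without KO library 1. On ranks of the fold enrichment the differences nearest to Gm40363 and Mef2d were 0.12 and 0.08, and that near Trim55 was −0.22.

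PLX chow was compared with control chow to ask whether feeding the compound altered the accessibility of members. No member and no shared region passed (0% of 71365 called by limma), and every adjusted p of a member was 1. At an unadjusted p under 0.05 there were 0 members beside 3.36% of shared regions. With the spread following the mean rank there were 2 members (1.05%), and the share of shared regions in that fit is not given here. The groups did not overlap for 26 members with higher and 28 with lower ranks in PLX chow (13.7% and 14.7%), against 15.7% and 15.9% of shared regions. Members differed by −0.17 to 0.25 normal scores, with a median absolute difference of 0.06, against 0.14 for shared regions and 0.05 for strong regions at gene ends. As for KO and WT, these shares and differences of members are not independent of the rule and are given as a description.

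The largest positive difference was at chr13:34095959-34097430, nearest to Tubb2a, a neuronal beta-tubulin gene. Its percentiles were 87.01 and 86.34 in PLX chow, against 79.87 and 81.30 in control chow, a difference of 0.25 ± 0.15 normal scores (SE) that did not pass. Those near Srbd1 and Snap25, the synaptic vesicle fusion gene, followed with 0.19 and 0.16. The largest negative ones were −0.17 beside n-TGgcc4 near Fcgr3, an immunoglobulin receptor gene of myeloid cells, −0.17 near Scd2 and −0.16 over A930006K02Rik near Ifnar1. For the member near Fcgr3, percentiles were 91.31 and 93.67 in PLX chow, against 94.39 and 94.92 in control chow.

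A last comparison took the 4 dLGN libraries together and set them against the 4 brain section libraries. Tissue, age, preparation and treatment group differ together here and cannot be told apart, and fewer cells of a type and less accessibility per cell cannot be told apart in bulk tissue. Of the 71365 shared regions 33.1% were called, 16.5% higher and 16.6% lower in dLGN. Of the 190 members 22 were called (11.6%), 9 higher and 13 lower, and at an unadjusted p 40 (21.1%), against 46% of shared regions. The strong regions at gene ends, which passed the same limit, gave 12.2%, 240 higher and 315 lower of 4531. The limit of 100 in every library kept out regions that are weak in either tissue, so the members' share is not independent of the rule and is given as a description. The number called fell to 2 without control chow library 1 or 2, to 4 and 6 without PLX chow library 1 and 2, and to 8 to 12 without any 1 section library. With the spread following the mean rank 73 members were called (38.4%), against 42.2% of shared regions. Of all 190 members 23 were called higher and 50 lower in that fit. Of the 71365 shared regions 14726 (20.6%) were called higher and 15361 (21.5%) lower. In that fit 87 members (45.8%) had an unadjusted limma p under 0.05. The share of shared regions at an unadjusted p in that fit is not given here, and the 46% above belongs to the first fit. The gap in called shares between members and shared regions thus depended on how the spread was modelled. The dLGN and section libraries did not overlap for 21 members with higher and 45 with lower ranks in dLGN (11.1% and 23.7%), against 18.4% and 18.6% of shared regions.

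**Figure D4:**
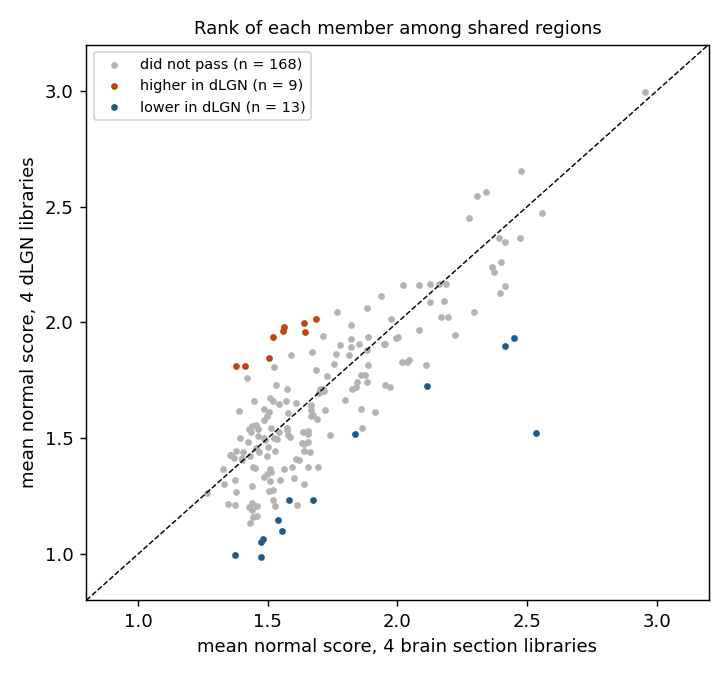
Each point is 1 member, with its mean normal score over the 4 dLGN libraries (y axis) against its mean over the 4 brain section libraries (x axis) and the line of equality dashed. The 9 members called higher in dLGN lie above the line and the 13 called lower lie below it, with 1 member, nearest to Gm40363, far below the others.

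The largest difference was at chr6:47748211-47748792, a narrow region of 582 bp whose nearest protein-coding gene is Gm40363 and whose centre lies 701 bp from the lncRNA gene Gm52861. Its −log10 p was 239 and 244 in PLX chow and 296 and 255.7 in control chow, against 546 and 382 in KO and 433 and 250 in WT. On percentiles it stood at 93.76 and 94.00 in PLX chow and 93.21 and 93.42 in control chow, against 99.89 and 99.44 in KO and 99.28 and 98.22 in WT. All 4 dLGN libraries were below all 4 section libraries, by −1.01 ± 0.15 normal scores (SE, limma adjusted p = 0.00553). It was called under 14 of 14 alternatives, with adjusted p of 3.44e-08 to 0.0237.

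The next lower members were the lncRNA promoters Gm42196 and 1700113A16Rik shown above. Over Gm42196 percentiles were 97.52 and 96.98 in PLX chow and 96.50 and 97.35 in control chow, against 99.16 and 99.20 in KO and 98.80 and 99.55 in WT. Its rank fell by 0.52 ± 0.12 normal scores in dLGN (SE, limma adjusted p = 0.0195), with the dLGN libraries all below the section libraries. The call held under 8 of 14 alternatives. It was lost without any 1 of the 4 dLGN libraries, on ranks of the fold enrichment (−0.43) and on log2 of −log10 p (−0.53). Over 1700113A16Rik, near the gene of the neuronal transcription factor Mef2d, percentiles were 96.99 and 97.85 in PLX chow and 97.69 and 96.74 in control chow, against 99.62 and 99.65 in KO and 98.95 and 98.35 in WT. Its rank fell by 0.52 ± 0.11 normal scores (SE, limma adjusted p = 0.0141, lower in 4 of 4 dLGN libraries), and the call held under 11 of 14 alternatives. It was lost without control chow library 2 (−0.48), on log2 of −log10 p (−0.47) and on ranks of the fold enrichment (−0.14), and limma's adjusted p lay between 9.67e-06 and 0.503 over the 14.

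The 3 largest higher members were smaller in size. Near Lta4h, the gene of leukotriene A4 hydrolase, and 556 bp from Mir7688, percentiles were 96.95 and 95.89 in PLX chow and 96.70 and 96.33 in control chow, against 91.82 and 89.98 in KO and 92.25 and 92.18 in WT. Its rank rose by 0.43 ± 0.10 normal scores (SE, limma adjusted p = 0.0193, higher in 4 of 4 dLGN libraries), and the call was lost without PLX chow library 1 or either control chow library. Over Gm26567 near Trim43a they were 97.36 and 98.16 in PLX chow and 97.92 and 96.86 in control chow, against 94.50 and 92.04 in KO and 94.72 and 94.75 in WT (0.42 ± 0.11, SE, limma adjusted p = 0.0291). That call was kept without 1 of the 8 libraries only, KO library 1. On ranks of the fold enrichment the difference was −0.18, so its direction depended on the measure of strength. Most of the Gm26567 promoter recurs almost unchanged in the promoter of Gm26611, which starts in another member, at chr9:88858428-88859399. With multimapping at 0, the strength of peaks at such near-identical copies is uncertain, as at tRNA genes. Near Adamts6, a metalloprotease gene, the difference was 0.42 ± 0.10 (SE, limma adjusted p = 0.0199), higher in 4 of 4 dLGN libraries, and the call was lost without any 1 dLGN library and on ranks of the fold enrichment (0.33).

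**Figure D5:**
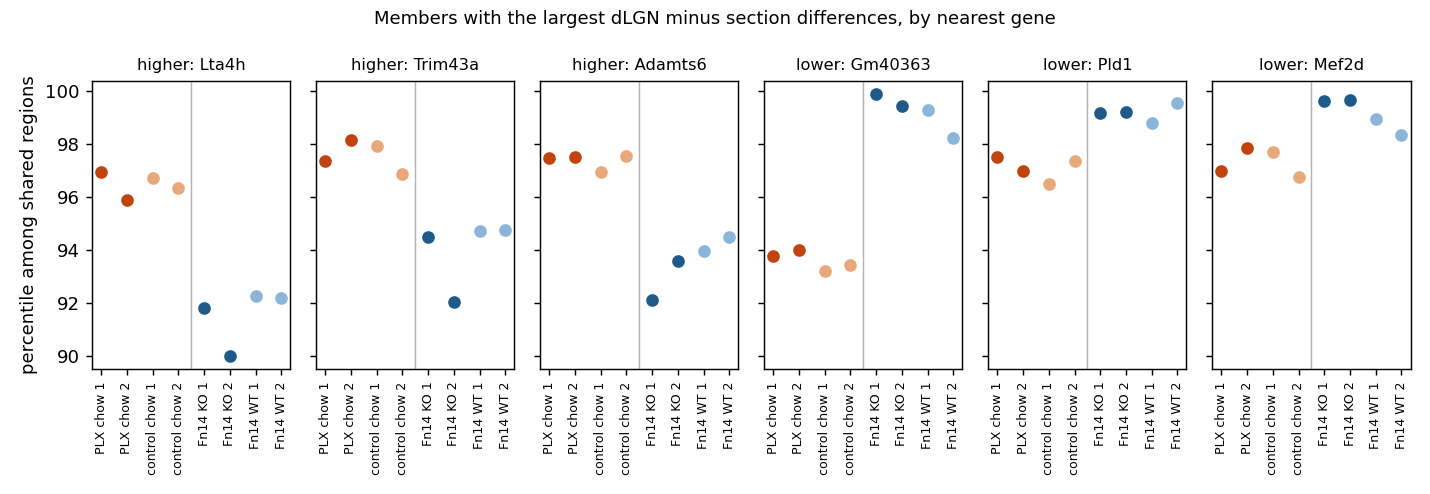
Each panel is 1 member, named by its nearest protein-coding gene, and each point its percentile rank among the 71365 shared regions in 1 library, with the 4 dLGN libraries left of the grey line and the 4 brain section libraries right of it. In the 3 left panels the dLGN libraries stand higher and in the 3 right panels lower, with the widest gap nearest to Gm40363.

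The other called members had differences of 0.31 to 0.41 normal scores in size where higher and 0.32 to 0.49 where lower. Higher in dLGN were also the members near Nfib, a neuronal and glial transcription factor gene on the list of neuronal transcription factors (0.41, limma adjusted p = 0.0227), near Zfp970 over the start of Gm14403 (0.40), and near Trim43c, Hnrnpu, Mycn and Fer. For the member near Nfib percentiles were 97.53 and 96.90 in PLX chow and 97.56 and 98.01 in control chow, against 93.30 and 93.75 in KO and 93.97 and 95.05 in WT, with no overlap between the tissues. Lower in dLGN were also those near Tubb2a (−0.49), Ezr (−0.46), Arhgap5 (−0.44), Slc16a1 (−0.42) and Cela3a (−0.42), and near Zfp362, Gnpda1, Cobl, Ppp2r5c and Rab10. Apart from Nfib, Tubb2a and Arhgap5, these genes are not taken by the naming rule and were picked with their values known. A non-coding gene end lay within 1 kb of 4 of the 9 higher and 8 of the 13 lower members, beside 93 of all 190. A lncRNA start lay inside 3 of the 9 and 6 of the 13, beside 50 of the 190. The members over Chaserr, Dancr, Snhg5 and Mir22hg were not among those called.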

How the data were processed

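Members and gene lists were chosen with earlier results of these data known. Per the deposited pipeline instructions, the authors used the ENCODE ATAC-seq pipeline for paired-end reads on mm10, with a p threshold of 0.01 for peaks and multimapping at 0. deepTools 3.5.0 is named in the submitters' processing notes, without its use. Aligner and peak caller: not given in the sources used here. Each sample has its own list, limited to 300000 peaks, per the names of the deposited lists, and the lists hold 248989 to 299822 peaks. For each peak the authors deposited a fold enrichment (a ratio over local background) and p and q-values as −log10. The deposited score follows from the −log10 p and was not used. All are the authors' values, used only within a list. Read depth is unknown.

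Each union region kept its highest −log10 p per library. Genes came from the RefSeq table of GRCm38.p6, with 21887 protein-coding and 28056 other genes, and all 251 genes of 9 lists matched. Ranks over the 71365 shared regions were turned into normal scores and fitted with limma 3.58.1 in R 4.3.3, with 4 groups and all 8 libraries in 1 fit, Benjamini-Hochberg adjustment over all shared regions and a threshold of 0.05. The step was tested on simulated data. A permutation test planned for summit number and width is not given, because the members were chosen with results known.

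The text names the 10 strongest members, the 10 strongest beside non-coding genes, 3 on each side of the limit, the 3 largest differences per comparison and direction, the 3 widest, the 3 largest runs, the 3 genes with most members and up to 3 members per gene list. Snhg5, Snhg15, Oip5os1, Kantr, Mir22hg, the let-7 member, Klf4, further tRNA members and the called members past the third in each direction are not taken by this rule and were picked with their values known. Some members that the rule takes are not reported here. Alternatives to the limit, the distances, the measure of strength, the block and the libraries were tried.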

Additional observations from a re-analysis of the deposited data

How the results depend on the processing

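The number of members was 846 with a limit of 50, 81 with a limit of 150 and 97 when genes of every type were avoided, and 133 to 190 with a minimum distance of 10 kb, peaks of q at most 0.05 or peaks that covered at least 50% of the region. Leaving out 1 library gave 190 to 267 members. With a limit of 150 the covered width differed by −94.7 bp. With a window of 5 kb, 59.5% of members had a non-coding gene end, and within 25 kb only 8 had another member. Leaving out 1 library gave 2 to 12 called members between dLGN and section and 14482 to 19758 called shared regions, and 0 called members for both other contrasts. With the spread following the mean rank, added after seeing the data, 73 members were called between dLGN and section, and 75 shared regions but 0 members between KO and WT. Of the 84 recomputed values of the 6 members named between dLGN and section, 58 kept their direction and stayed called, 25 lost the call and 1, the member over Gm26567, turned to −0.18 on ranks of the fold enrichment. The members named in the other contrasts were not called and had no call to lose. Read depth is unknown and 2 libraries per group limit what KO and PLX chow comparisons can detect; the cause of these changes was not tested.

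The replicate number as a block gave 8 of 190 members and 20945 of 71365 shared regions called between dLGN and section. In both other contrasts it gave 0 members and 0 shared regions. With the block and the trend together there were 78 members and 31596 shared regions between dLGN and section. Between KO and WT there were 3 members and 339 shared regions, and the members lay near Gm40363, Mef2d and 4930444G20Rik. Deviations of same-numbered libraries correlated across regions with r = 0.14 for KO and WT and 0.00038 for PLX and control chow, over 71365 regions that are not independent, so that with 2 pairs the numbers are not shown to pair the libraries.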
